A study of Rattus norvegicus and Mus musculus with 34 samples.

Results

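Jaw bone that healed with its sensory nerve intact was compared between an early and a late time, day 3 and day 14 after surgery, across all 20022 gene rows of the rat gene matrix. The members were the libraries labelled Con_D3 (3 rats) and Con_D14 (4 rats), which are 7 of the 34 samples in the series and 7 of the 19 rats in this table. The animals were male, specific pathogen-free Sprague-Dawley rats of wild-type genotype, several weeks old at surgery. In each, a bone defect of fixed size was cut on the cheek side of the lower jaw beside the molars, penicillin was injected daily over the first days, and rats with an abscess were left out by the study. In the sensory nerve+ rats the inferior alveolar nerve, the sensory nerve of the lower jaw, was left in place, whereas a segment of it was removed in the sensory nerve- rats, and no handling of the nerve in the sensory nerve+ rats is described. Each library is called a rat here, although the sources used here do not say whether a library was made from 1 rat or from pooled rats. Tissue inside the defect was taken without sorting and is labelled as mixed cells, so each value is an average over every cell type caught in the defect. The study compared time points of normally innervated healing to describe the acute inflammatory phase that sensory nerves may act on.

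A bone wound first fills with clot and with neutrophils and macrophages, which clear debris and release cytokines in poorly perfused tissue. Fibroblasts, endothelial cells and osteoblasts then lay down collagen and mineral, while osteoclasts, which arise from the monocyte lineage, resorb and reshape it. Peripheral nerve fibres grow back alongside Schwann cells, the glia that wrap axons in myelin and secrete growth factors for them.

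The 3 day 3 libraries held between 17948336 and 18269567 counts and the 4 day 14 libraries between 15917717 and 17782980. Hemoglobin genes took 19.5%, 6.48% and 5.40% of counts at day 3 and 6.53%, 1.38%, 17.6% and 20.2% at day 14, and the days did not differ beyond the wide spread between rats (10.4% ± 7.82, SD, n = 3, against 11.4% ± 8.93, n = 4; exact two-sided permutation test, p = 0.857). Genes of a fixed skeletal muscle list took 0.0345%, 0.0112% and 0.0246% at day 3 and 5.71%, 0.0599%, 2.93% and 3.62% at day 14. Every day 14 rat lay above every day 3 rat, but replicate 2 of day 14 came close to the highest day 3 rat (0.0235% ± 0.0117 against 3.08% ± 2.34, exact p = 0.0571, where 0.0286 is the smallest p that 35 splits allow). On principal components of all genes tested, the first axis (52.7% of variance) placed the day 3 rats at -91.7 to -65.5 and 3 of the day 14 rats at 81.9 to 90.6, with day 14 replicate 2 at -29.3. That rat also sat alone on the second axis (19.4% of variance) at -106. Because it stands apart, counts of list members called are given with and without it. The plot of the 7 libraries shows these 3 measures.

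**Figure D1:**
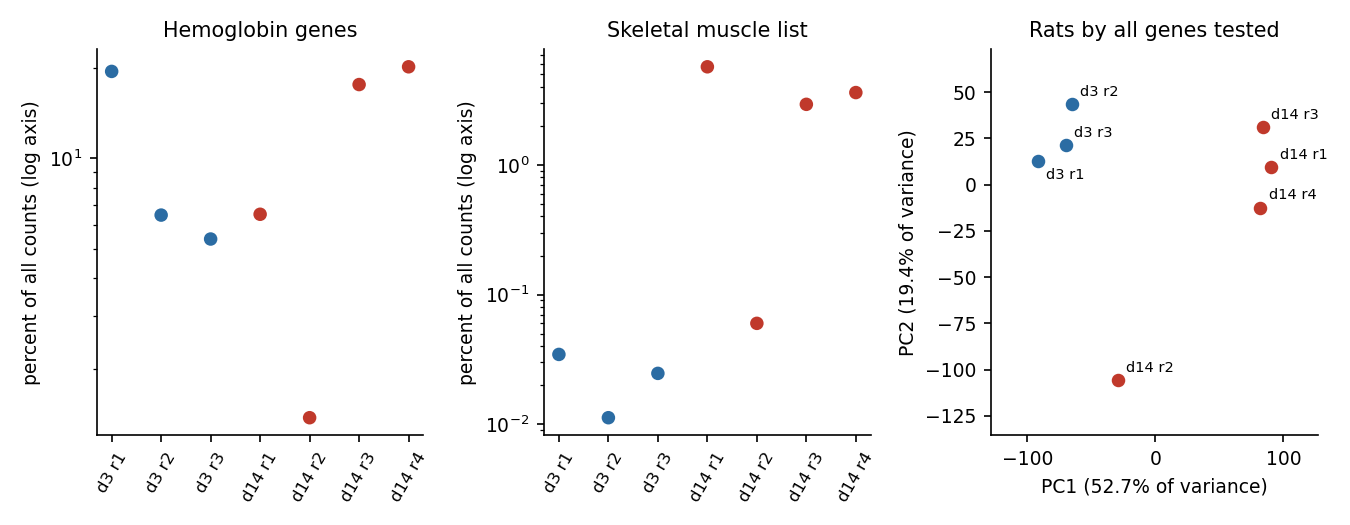
Percent of all counts in hemoglobin genes (left, log axis) and in the skeletal muscle list (middle, log axis) for each sensory nerve+ rat, and the 7 rats on the first 2 principal components (right, axes labelled with percent of variance); blue, day 3; red, day 14; r1 to r4, replicate numbers. Muscle counts reach 2.93% to 5.71% in 3 of the 4 day 14 rats and 0.0599% in replicate 2, which also lies apart on both components.

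Expected counts were tested with edgeR's quasi-likelihood test after TMM scaling, and levels are given as TMM-scaled CPM, the share of a library's counts that a gene takes. Of 15065 genes with enough counts to test, 871 (5.78%) differed between the days at an adjusted p under 0.05, 406 (2.69%) higher and 465 (3.09%) lower at day 14. All 871 had no overlap between the rats of the 2 days, a condition that 3710 genes (24.6%) met. Genes that rose did so by more than genes that fell: the median size of the log2 fold change was 3.07 for the 406 and 1.06 for the 465, and 269 of the former against 87 of the latter changed at least 4-fold. The typical gene that rose was low at day 3 (median 3.38 CPM) and reached a median of 37.0 CPM, whereas the typical gene that fell went from 85.5 to 39.1 CPM. The smallest adjusted p was 0.0154. The calls depended on which rats were in the fit. Without day 14 replicate 2, 3133 of 14898 genes (21.0%) were called, 1734 higher (11.6%) and 1399 lower (9.39%), among them 868 of the 871, whereas leaving out 1 other rat left 257 (day 3 replicate 2), 177 (day 3 replicate 1), 2 (day 14 replicate 1) or 0 calls (day 3 replicate 3, day 14 replicate 3 or day 14 replicate 4, where edgeR's unadjusted p was under 0.05 for 2994 to 3499 genes). By DESeq2, 3375 genes were called with all 7 rats. Scaling by library total gave 358 higher and 189 lower, and the median over all genes was 0.07 on the log2 scale under that scaling. The plot of all genes tested shows these calls.

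**Figure D2:**
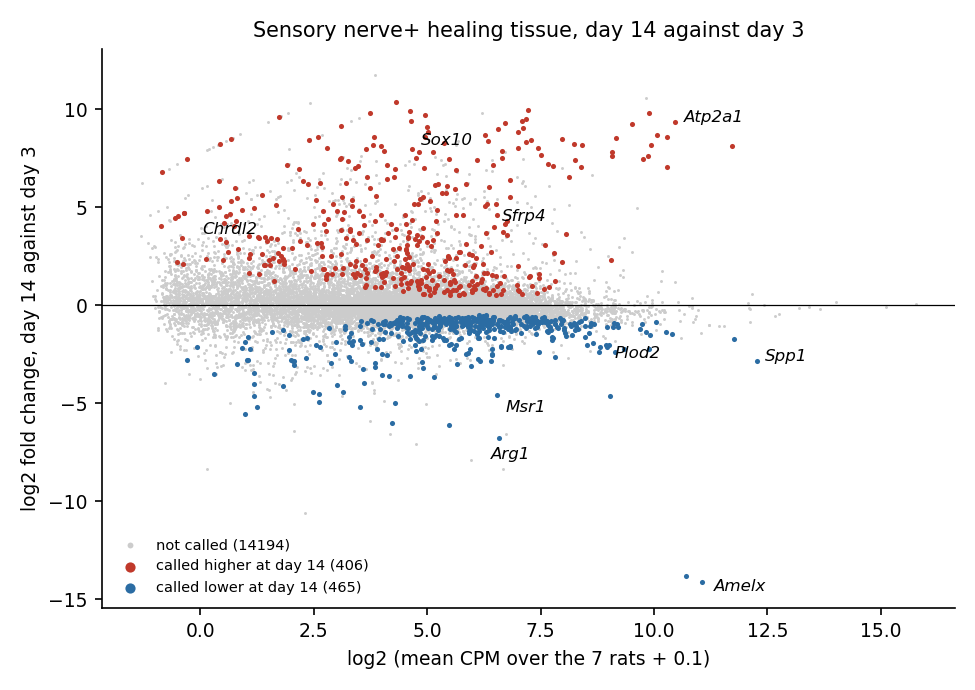
Log2 fold change of day 14 against day 3 (vertical) against the mean level of each of 15065 genes (horizontal, log2 of mean CPM over the 7 rats plus 0.1); red, 406 genes called higher; blue, 465 called lower; grey, 14194 not called. Red points extend to about 10 on the vertical axis, while most blue points lie close under 0.

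The cells and pathways of a healing jaw were then read through 25 gene lists, and their counts are set against the 5.78% of all genes that were called. Counts without day 14 replicate 2 are to be read against the larger share of that fit, 21% of all genes, 11.6% higher and 9.39% lower. Skeletal muscle (18 of 28 tested members higher, median log2 fold change 7.64) and Schwann cell and myelin genes (12 of 21 higher, median 3.71) held the most genes that rose. Hypoxia and glycolysis genes (8 of 23 lower, median -1.78) and macrophage genes (5 of 24 lower, median -1.40) held the most that fell. The median over all genes tested was 0.00. Genes with almost no counts on 1 day passed the filter on low counts through the other day, so their direction was set by the filter. The muscle and Schwann cell lists both hold such members, and their counts of genes that rose include some. The plot of gene lists gives every member.

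**Figure D3:**
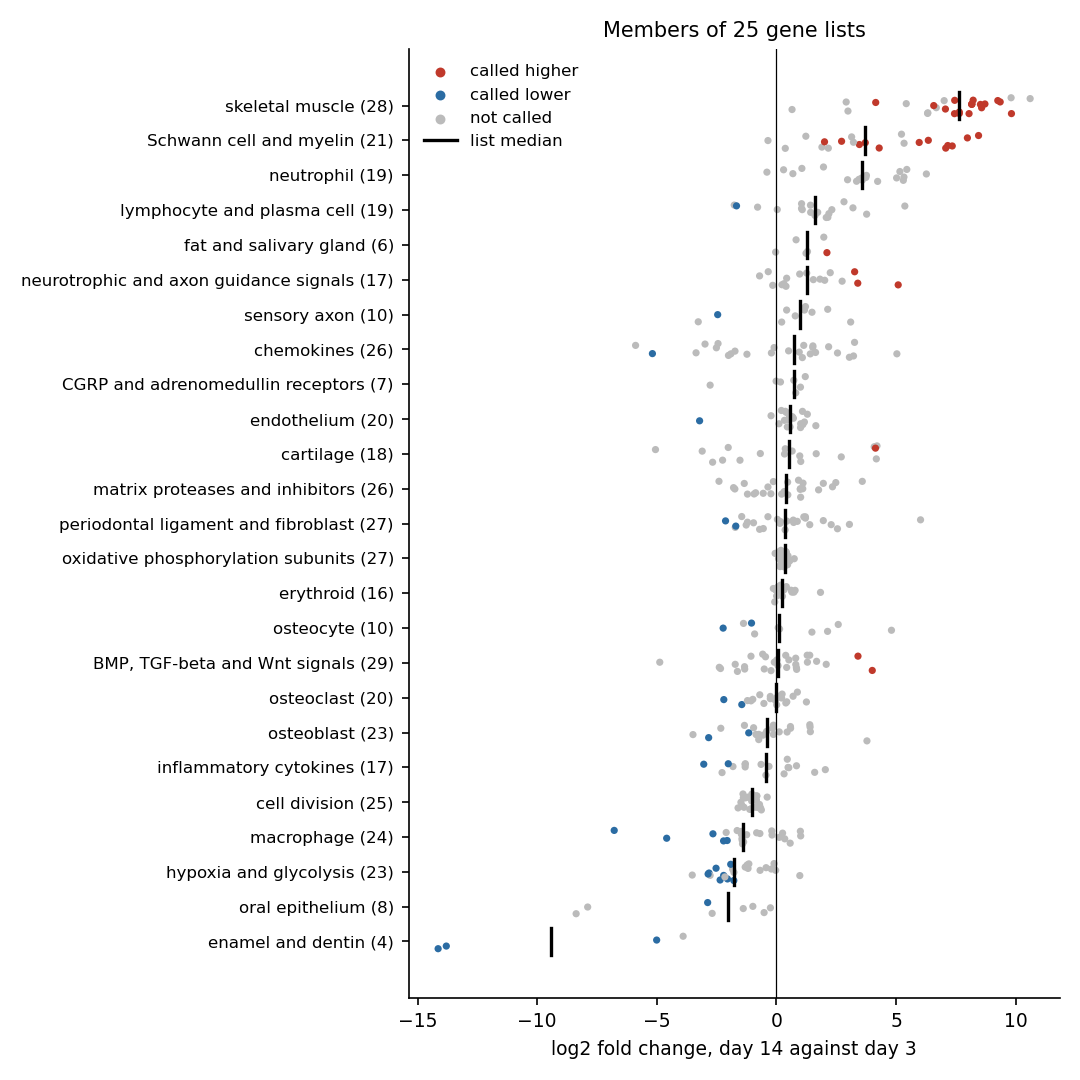
Log2 fold change of day 14 against day 3 (horizontal) for the tested members of each of 25 gene lists (rows, number tested in brackets); red, called higher; blue, called lower; grey, not called; black bar, list median. The muscle and Schwann cell rows lie far to the right and the hypoxia, macrophage and enamel rows to the left of 0. The enamel row holds 4 genes, and 6 others of that list did not pass the filter on low counts.

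Among inflammatory cytokines, 2 of 17 tested members fell and none rose, and without day 14 replicate 2 Ptgs2, the inducible cyclooxygenase, was lower as well. Il18, a cytokine matured by the inflammasome, measured 47, 45.7 and 46.2 CPM at day 3 and 10.8, 11.7, 10.6 and 12.5 CPM at day 14. The rats within each day were almost equal and the days lay far apart, giving the smallest adjusted p of any gene (log2 fold change -2.02, SE 0.13, adjusted p = 0.0154). Tnf, the macrophage cytokine that drives acute inflammation, went from 12.3, 4.67 and 7.74 to 0.461, 1.97, 0.552 and 0.974 CPM and fell 8.22-fold (adjusted p = 0.0419). Its highest day 14 value was that of replicate 2. Il1b did not pass the test (104, 28.5 and 29.9 against 90.2, 116, 14.1 and 74 CPM, adjusted p = 0.733), and its ranges overlapped almost fully. Nos2, the inducible nitric oxide synthase, was high in day 3 replicate 1 alone (187, 29.8 and 33.7 CPM) and measured 9.8, 42.9, 5.82 and 75.5 CPM at day 14 (adjusted p = 0.441), and its fold change turned positive without that rat.

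Of 26 tested chemokines, 1 fell and none rose. Cxcl2, which draws neutrophils, measured 61.1, 4.72 and 11.3 CPM at day 3 and 1.15, 1.01, 0.368 and 0.243 CPM at day 14 (log2 fold change -5.19, SE 1.02, adjusted p = 0.0418), with no overlap. Its neighbour Cxcl3 ran in parallel, from 71.4, 4.11 and 14.6 to 1.27, 0, 0.49 and 0.243 CPM, and missed the threshold (adjusted p = 0.0501), as did the monocyte attractant Ccl2, at 177, 39.6 and 90.8 and 11.4, 2.98, 22.9 and 14.3 CPM (log2 fold change -2.99, adjusted p = 0.0561). Without day 14 replicate 2, 3 chemokines were lower and 4 higher, among the latter the eosinophil attractant Ccl11 (0.103 to 0.676 CPM at day 3 and 0.744 to 20.6 CPM at day 14). Over all genes of that fit 9.39% were lower and 11.6% higher, and the counts among these 26 lie near those shares.

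Macrophage genes changed unevenly. Msr1, a scavenger receptor for modified lipoproteins and debris, measured 353, 125 and 139 CPM at day 3 and 6.97, 9.08, 7.97 and 10.04 CPM at day 14. The lowest early rat was far above all 4 late rats (24.1-fold lower; log2 fold change -4.59, SE 0.42, adjusted p = 0.0165). Arg1, which breaks down arginine and marks wound macrophages, fell from 499.8, 89.2 and 76.2 CPM to 2.42, 0.797, 2.02 and 2.8 CPM (log2 fold change -6.78, SE 0.88, adjusted p = 0.0258), again with no overlap and with replicate 1 highest at day 3. Mrc1, the mannose receptor CD206, fell from 669, 306 and 330.3 to 45.6, 97.3, 63.3 and 69.4 CPM (6.3-fold, adjusted p = 0.0272). The remaining calls were Folr2, a folate receptor of resident macrophages (4.63-fold, adjusted p = 0.0393), and Cd14, a coreceptor for lipopolysaccharide (4.17-fold, adjusted p = 0.0411). By contrast the general marker Cd68 measured 365, 175 and 426 against 107, 182, 133 and 119 CPM and did not pass (adjusted p = 0.0663), and the complement gene C1qa and Adgre1, which encodes F4/80, had positive fold changes of 0.35 and 0.25 that did not pass either (adjusted p = 0.508 and 0.728). In bulk tissue, fewer macrophages and less of these transcripts per macrophage cannot be told apart. Without day 14 replicate 2, 10 of the 24 were lower and none higher.

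None of 19 neutrophil genes passed edgeR's test, although their median log2 fold change was 3.59, and none passed without day 14 replicate 2, where the median was 1.89. That rat held the highest values. Ngp, a neutrophil granule protein, measured 1.01, 0.462 and 7.79 CPM at day 3 and 12.5, 869, 4.23 and 64.7 CPM at day 14, and S100a9, a calcium-binding protein of neutrophils and monocytes, measured 122, 81.3 and 89.1 and 192, 3131, 42.6 and 875 CPM. Summed over the list, day 14 replicate 2 held 8924 CPM on a scale common to all 19 rats, against 207 to 2061 in the other late rats and 353 to 741 at day 3. B and plasma cell genes leaned the same way, with Mzb1, a chaperone of antibody-secreting cells, at 0.203, 0.411 and 0.376 CPM at day 3 and 3.34, 41.4, 2.33 and 8.95 CPM at day 14 (adjusted p = 0.0547). Of the 19 lymphocyte and plasma cell genes tested, the only call was Sdc1, which is also made by fibroblasts and epithelium and fell from 362, 353 and 369 to 108, 91.7, 167 and 86.7 CPM (adjusted p = 0.0281). With day 14 replicate 2 left out, 3 were higher, Mzb1 and the T cell genes Cd3g and Cd4, and Sdc1 was lower.

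Of 23 hypoxia and glycolysis genes, 8 fell and none rose, and 22 of the 23 fold changes were negative. Leaving out day 14 replicate 2 gave 11 lower and none higher. Slc2a1, the glucose transporter GLUT1, measured 227, 102 and 95.1 CPM at day 3 and 18.3, 17.2, 17.6 and 26.9 CPM at day 14 (log2 fold change -2.82, SE 0.36, adjusted p = 0.0258). The highest late rat, replicate 4, was still far under the lowest early rat. Glycolytic enzymes moved with it: Eno1, enolase, went from 2779, 1119 and 1296 to 312, 536, 309.7 and 337 CPM (adjusted p = 0.0376), and Pgam1, phosphoglycerate mutase, from 1027, 502 and 549.5 to 150.2, 268, 151 and 165 CPM (adjusted p = 0.0377). Pdk1, the kinase that keeps pyruvate out of mitochondria, fell 3.44-fold (adjusted p = 0.0488), and Ero1a, which oxidises disulfide bonds in the endoplasmic reticulum, 7.25-fold (adjusted p = 0.046). Day 3 replicate 1 was the highest rat in each of these 5 genes. Other members of the same pathway did not pass, among them Ldha, lactate dehydrogenase, at 2009, 761 and 847 against 554, 455, 551 and 552 CPM (adjusted p = 0.0872), and Vegfa, the angiogenic factor, at 252, 188 and 101 against 259.8, 59.6, 162 and 190.1 CPM (adjusted p = 0.918).

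The other hypoxia-list genes that fell hydroxylate collagen, an early step in making a stable triple helix. Plod2, lysyl hydroxylase, measured 765, 993 and 863 CPM at day 3 and 218, 185, 236 and 205 CPM at day 14 (log2 fold change -2.05, SE 0.17, adjusted p = 0.0165). Here the early rats were close to each other, with replicate 1 the lowest of them. P4ha1 and P4ha2, the catalytic subunits of prolyl hydroxylase, went from 546, 244 and 189 to 66, 56.3, 70.1 and 62.2 CPM (adjusted p = 0.031) and from 234, 159 and 95.2 to 29.9, 17.5, 37.9 and 27.5 CPM (adjusted p = 0.0272).

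Promoters of these genes were read for the core of the hypoxia response element, ACGTG or its reverse complement CACGT, in a window of 250 bases before to 50 after the gene start (RefSeq, build GRCr8; 11495 of the tested genes had a window). A match stood in 10 of 18 windows of the hypoxia list (55.6%), in 41.6% of the 375 windows of genes called lower, in 15% of the 313 of genes called higher and in 24.3% of all 11495. Windows of genes that fell were also richer in CG pairs (median 23 against 12 in genes that rose and 20 in all). At or above 20 CG pairs, the shares were 47.6% for genes called lower, 21.4% for genes called higher and 29.0% for all genes, and under 20 they were 32.2%, 11.9% and 19.5%. The letters also occur inside CACGTG, a motif of other factors, so a match is a description of the sequence and not a bound site. Stretches around the matches of 4 genes that fell are given here because they carry the shared letters, in capitals, on the plus strand:
Slc2a1, chr5:138002456-138002490: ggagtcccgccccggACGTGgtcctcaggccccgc
Pgam1, chr1:250672996-250673030: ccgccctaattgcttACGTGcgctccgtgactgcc
Plod2, chr8:101964125-101964204: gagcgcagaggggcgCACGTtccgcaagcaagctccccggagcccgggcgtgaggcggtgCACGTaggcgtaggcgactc
P4ha2, chr10:38743746-38743872: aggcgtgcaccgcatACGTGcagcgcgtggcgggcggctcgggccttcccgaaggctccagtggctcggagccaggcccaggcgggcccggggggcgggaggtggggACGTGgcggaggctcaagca
Stretches were taken from the 250 bases before the start only, where Plod2 and P4ha2 held 2 matches each. In Slc2a1 and Pgam1 the first base of the single match there lay 51 and 141 bases before the start. Eno1, Pdk1, Ero1a and P4ha1, which also fell, had no match there or no window.

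Matrix and ligament genes showed both directions. Lox, which cross-links collagen and elastin, fell from 1212, 691 and 486 to 184, 106, 258 and 179 CPM (log2 fold change -2.13, SE 0.40, adjusted p = 0.0411), and Fn1, the fibronectin of provisional wound matrix, from 8985, 4162 and 4049 to 1916, 2217, 1442 and 1465 CPM (adjusted p = 0.0495). Those were the only calls among 27 periodontal ligament and fibroblast genes. Without day 14 replicate 2 the list had 6 members higher and 2 lower. Postn, periostin of the ligament, was among the 6 and measured 468, 1043 and 914 CPM at day 3 and 2466, 437, 2412 and 2148 CPM at day 14, with replicate 2 lower than every day 3 rat (adjusted p = 0.242). Kera, a keratan sulfate proteoglycan, had the same shape, at 0.0676, 0.154 and 0.215 and 3.86, 0.0531, 20.8 and 15.6 CPM (adjusted p = 0.0793). Fibrillar collagen did not pass: Col1a1 measured 12456, 13532 and 15464 CPM at day 3 and 11257, 17906, 12799 and 7147 CPM at day 14 (adjusted p = 0.825). None of 26 matrix proteases and inhibitors passed edgeR's test, with Timp1, an inhibitor of metalloproteinases, nearest at 322, 193 and 262 against 106, 58.4, 144 and 97.9 CPM (adjusted p = 0.0534). Once day 14 replicate 2 was left out, 4 were higher, the proteases Mmp12, Adamts1 and Adamts9 and the inhibitor Timp4. The 3 lower ones were Timp1, the protease Adam8 and the urokinase receptor Plaur. These counts among 26 lie near the 11.6% higher and 9.39% lower over all genes of that fit.

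Of 23 osteoblast genes, 2 fell. Spp1, osteopontin, which macrophages make as well as bone cells, measured 12944, 3162 and 12927 CPM at day 3 and 831, 1389, 2107 and 1081 CPM at day 14 (log2 fold change -2.83, SE 0.58, adjusted p = 0.0427). Day 3 replicate 2 stood well below the other early rats and still above the late ones. Enpp1, which makes the mineralisation inhibitor pyrophosphate, fell from 107, 106 and 95.2 to 45.2, 52, 48.2 and 38 CPM (log2 fold change -1.16, SE 0.14, adjusted p = 0.0258). Bglap, osteocalcin, a late osteoblast product, measured 1.08, 65.8 and 17.2 CPM at day 3 and 113, 794, 463 and 172 CPM at day 14, so the days did not overlap, but the early spread was wide and replicate 1 held almost none (log2 fold change 3.78, SE 1.35, adjusted p = 0.124). Runx2, the master regulator of osteoblasts, did not pass (39.7, 97.2 and 104 against 69.3, 131, 81.5 and 65.3 CPM, adjusted p = 0.875), and the sign of its fold change turned without day 3 replicate 1 and without day 14 replicate 2. In the osteocyte list, 2 of 10 tested members fell, Pdpn, podoplanin, from 216, 123 and 128 to 33.2, 12.4, 44.2 and 42.8 CPM (log2 fold change -2.23, SE 0.45, adjusted p = 0.0422) and the hyaluronan receptor Cd44 from 607, 438 and 599 to 257, 294, 239.8 and 269.6 CPM (adjusted p = 0.0362). Both genes are also made by fibroblasts and leukocytes. In the fit without day 14 replicate 2, 1 osteoblast gene was higher, the phosphatase Phospho1, and 3 were lower, Spp1, Enpp1 and the matrix protein Tnn. In the osteocyte list the hormone Fgf23 was higher and the same 2 genes were lower. Dmp1 and Mepe, which are closer to osteocytes, had positive fold changes of 1.48 and 2.58 that did not pass (adjusted p = 0.35 and 0.0965).

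Of 20 osteoclast genes, 2 fell and none rose, with all 7 rats and without day 14 replicate 2, and both are receptors for RANKL. Without that rat 9.39% of all genes were lower, and 2 of 20 lies near that share. Tnfrsf11b, osteoprotegerin, the decoy receptor that blocks osteoclast formation, measured 14.1, 42 and 24 CPM at day 3 and 8.24, 3.93, 6.37 and 4.63 CPM at day 14 (log2 fold change -2.20, SE 0.42, adjusted p = 0.0415). Tnfrsf11a, the receptor RANK on osteoclast precursors, went from 31.2, 27 and 56 to 16, 15.5, 13.3 and 10.7 CPM (log2 fold change -1.45, SE 0.29, adjusted p = 0.0422). Neither overlapped. Their shared ligand Tnfsf11, RANKL, measured 0.406, 3.03 and 5.0 CPM and 2.59, 2.34, 1.96 and 2.5 CPM (adjusted p = 0.838), with the early rats on both sides of the late ones. Csf1, the growth factor of the monocyte lineage, measured 178, 85 and 229.7 against 63.2, 68.3, 83.3 and 67.1 CPM and did not pass (adjusted p = 0.0637). Fos, a transcription factor that osteoclasts need, did not pass either, at 35.1, 17.4 and 28.7 against 114, 70.2, 19.4 and 31.9 CPM (adjusted p = 0.275). Nor did products of mature osteoclasts. Acp5, the phosphatase behind TRAP staining, measured 135, 133 and 490.4 against 380.2, 769, 403 and 292 CPM (adjusted p = 0.36), Ctsk, the collagen-degrading cathepsin, 161, 409 and 1347 against 1566, 2057, 1454 and 974 CPM (adjusted p = 0.276), and the costimulatory receptor Oscar 14 to 24.1 against 13.8 to 51.6 CPM (adjusted p = 0.347). Over the 20 members the median was -0.02, and it turned to 0.05 when scaled by library total and to 0.01 without hemoglobin genes in the scaling.

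Among 29 BMP, TGF-beta and Wnt signals, 2 rose, and both encode secreted antagonists. Chrdl2, which binds BMPs, measured 0.541, 0.513 and 0.376 CPM at day 3 and 5.13, 4.94, 5.03 and 5.3 CPM at day 14. All 4 late rats, replicate 2 included, agreed within a narrow range (log2 fold change 3.41, SE 0.30, adjusted p = 0.0165). Sfrp4, a decoy for Wnt ligands, went from 11.3, 6.73 and 9.83 to 166, 44.7, 242 and 141 CPM (log2 fold change 4.0, SE 0.60, adjusted p = 0.0298), with replicate 2 the lowest late rat. The ligand Wnt5a was lower in every late rat (28.1, 104 and 33.7 against 15.6, 7.23, 13.9 and 6.94 CPM) and missed the threshold (adjusted p = 0.0526). In 6 rats, without day 14 replicate 2, 3 signals were higher, the 2 above and the BMP antagonist Chrd, and 3 were lower, Wnt5a, Tgfb1 and the activin subunit Inhba. Both counts among 29 lie near the 11.6% higher and 9.39% lower over all genes without that rat. Of 18 tested cartilage genes, Comp, a matrix protein shared by cartilage and tendon, was the 1 that rose, from 0.541, 0.565 and 0.752 to 10.5, 1.7, 18.3 and 13.6 CPM (adjusted p = 0.0419). There were 4 higher without that rat (Comp, Sox6, Snorc and Ucma). Of 20 endothelial genes, Apln, the tip-cell peptide apelin, was the 1 that fell, from 81.8, 36.7 and 63.7 to 9.28, 3.19, 11.1 and 2.56 CPM (log2 fold change -3.21, SE 0.59, adjusted p = 0.0399), although 18 of the 20 fold changes were positive. The pan-endothelial Pecam1 measured 101, 80.8 and 146 and 306, 119, 402 and 238 CPM (adjusted p = 0.105), and Tek, the angiopoietin receptor, 23.3, 29.5 and 46.6 and 80.5, 32.2, 110.1 and 60.9 CPM (adjusted p = 0.157), replicate 2 being the lowest late rat in both. Without it 5 endothelial genes were higher, Pecam1, Tek, the VEGF receptor Flt1, the clotting protein Vwf and the arterial factor Sox17, and Apln was lower. Gja1, connexin 43, which couples osteoblasts and fibroblasts and was on none of the lists, fell from 790.4, 982 and 675 to 158, 156, 196 and 123 CPM (log2 fold change -2.36, SE 0.22, adjusted p = 0.0165).

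Calls of cell division genes depended on 1 rat. None of 25 passed edgeR's test with all 7 rats, with a median log2 fold change of -1.0, and 22 were lower without day 14 replicate 2, with a median of -1.57. Cdk1, the mitotic kinase, measured 72.8, 49.2 and 72.4 CPM at day 3 and 13.6, 48.1, 14.1 and 24.8 CPM at day 14 (adjusted p = 0.113), and Tk1, a thymidine kinase of S phase, 117, 75.9 and 115 and 23.4, 70.9, 38.2 and 56.2 CPM (adjusted p = 0.109). In both, replicate 2 came close to the lowest day 3 rat while the other 3 late rats stayed well below. Their promoter windows held an E2F motif, TTTGGCG or TTTCCCG on either strand, in 6 of 20 cases (30.0%) against 7.64% of all windows, and a CCAAT box in 65.0% against 37.4%. None of 27 oxidative phosphorylation subunits passed edgeR's test, although 26 of the fold changes were positive, and they ran from -0.06 (Ndufa2) to 0.74 (Ndufa4), with a median of 0.35. The subunits Ndufa4, Ndufb8 and Ndufs3 were higher when day 14 replicate 2 was left out, and the median was 0.52. These 3 among 27 lie near the 11.6% of all genes that were higher in that fit.

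Skeletal muscle genes gave the largest rises. Atp2a1, the calcium pump of fast fibres, measured 4.53, 2.52 and 4.41 CPM at day 3 and 4666, 28.1, 2580.0 and 2649 CPM at day 14 (log2 fold change 9.35, SE 1.77, adjusted p = 0.0411). Acta1, skeletal actin, went from 24.3, 10.6 and 27.5 to 11796, 104, 4798 and 6949 CPM (adjusted p = 0.0422), and Myh8, the perinatal myosin heavy chain, from 2.1, 1.33 and 2.1 to 1401, 18.8, 1986 and 3239 CPM (log2 fold change 9.82, SE 1.81, adjusted p = 0.0404). In all 3 the lowest late rat was replicate 2, at a level between the early rats and the remaining late rats. The genes with the largest fold changes at 10 CPM or more were also muscle genes: Myot, a protein of the Z disc, measured 0.473, 0.205 and 0.107 and 521, 2.02, 218 and 309 CPM, Xirp2 of the intercalated disc and sarcomere 0.135, 0.359 and 0.484 and 477, 2.39, 191 and 334 CPM, and Sypl2, a membrane protein of the triad, 0.541, 0.308 and 0.215 and 309, 2.82, 289 and 346 CPM (adjusted p = 0.0422, 0.0422 and 0.0411). Mlip, a lamin-interacting protein of muscle, rested on 1 count in all 3 early rats and 2314 counts in the late ones. Rpl3l, a ribosomal protein made in striated muscle, rose even in replicate 2, from 0.338, 0.205 and 0.215 to 84.4, 20.03, 33.6 and 48.2 CPM (log2 fold change 7.51, SE 0.69, adjusted p = 0.0165). Myot, Xirp2, Sypl2, Mlip and Rpl3l passed the filter on low counts through their late counts, so their direction was set by the filter. Regulators of muscle formation did not pass, with Myog at 9.81, 4.11 and 8.06 and 43.1, 0.797, 110.4 and 65.5 CPM (adjusted p = 0.182) and Myod1 at 28.1, 2.41 and 1.67 and 16.5, 0.266, 36.3 and 13.9 CPM (adjusted p = 0.801). Without replicate 2, 27 of the 28 genes were higher. At day 7 the 4 sensory nerve+ rats already held 1.6% to 4.54% of counts in the list.

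Promoters of the muscle list held the E-box CAGCTG, the letters read by MyoD-family factors among others, in 8 of 24 windows (33.3%), compared with 23.3% of genes called higher and 16.5% of all. It reads the same on both strands. The stretches of 3 members that rose are shown because they carry it, in capitals, on the minus strand of GRCr8:
Atp2a1, chr1:190475431-190475466: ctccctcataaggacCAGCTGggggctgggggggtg
Acta1, chr19:68784411-68784444: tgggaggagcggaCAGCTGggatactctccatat
Casq1, chr13:87212912-87212947: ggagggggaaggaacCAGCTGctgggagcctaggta
The match began 41 bases before the start in Atp2a1, 237 in Acta1 and 222 in Casq1, the calcium store protein of muscle, which rose with a log2 fold change of 8.16 (adjusted p = 0.0427).

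Like every gene called, the Schwann cell genes that passed the test did not overlap between the days, replicate 2 included. Sox10, the factor that defines the Schwann cell lineage, measured 0.135, 0.205 and 0.161 CPM at day 3, which is 9 counts in all, and 73.6, 16.5, 37.8 and 49.7 CPM at day 14, 3019 counts (log2 fold change 7.98, SE 0.70, adjusted p = 0.0165). Foxd3, a neural crest factor kept in Schwann cell precursors, went from 0.0676, 0.154 and 0.0537 to 26.9, 6.91, 14.5 and 17.2 CPM (log2 fold change 7.35, SE 0.70, adjusted p = 0.0165), and Cdh19, an adhesion molecule of the same cells, from 0, 0.257 and 0.322 to 49, 11.2, 24.7 and 34.5 CPM (adjusted p = 0.0258). The highest early value among these 3 genes was 0.322 CPM. All 3 passed the filter on low counts through their late counts, so their direction was set by the filter. Sox2, a factor of immature and repair Schwann cells that is also used elsewhere, rose from 0.135, 0.616 and 0.376 to 15.3, 7.07, 10.2 and 10.9 CPM (adjusted p = 0.0258). S100b, a calcium-binding protein of glia, rose from 1.35, 3.34 and 8.33 to 63.5, 23.6, 57.4 and 47.4 CPM (adjusted p = 0.0418).

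Myelin genes followed. Mbp, myelin basic protein, measured 11.4, 8.01 and 8.76 CPM at day 3 and 419, 70.3, 98.1 and 146 CPM at day 14 (log2 fold change 4.29, SE 0.72, adjusted p = 0.0363), and Cnp, an enzyme of myelin that other cells make at a basal level, went from 51.9, 46.3 and 42.4 to 224, 148, 175 and 204 CPM (log2 fold change 2.01, SE 0.19, adjusted p = 0.0165). Replicate 1 was the highest and replicate 2 the lowest late rat in both, the same order at both ends as for the muscle genes Atp2a1 and Acta1. Prx, a protein of the myelin sheath, rose 13.1-fold (adjusted p = 0.0495), and Mag, the adhesion molecule facing the axon, had 1 count in all early rats and 613 in the late ones (adjusted p = 0.0332). Mag passed the filter on low counts through the late rats, so its direction was set by the filter. Among genes of the list that did not pass, Erbb3, the neuregulin receptor, measured 66.4, 37.8 and 61.3 against 107, 22.3, 58.5 and 95.9 CPM (adjusted p = 0.68) and Egr2, the factor that switches on myelination, 25.5, 6.11 and 28.1 against 17.6, 4.09, 20.7 and 19.6 CPM (adjusted p = 0.764). Without day 14 replicate 2, 16 of the 21 genes were higher and none lower. The part of muscle content in these rises was not tested.

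**Figure D4:**
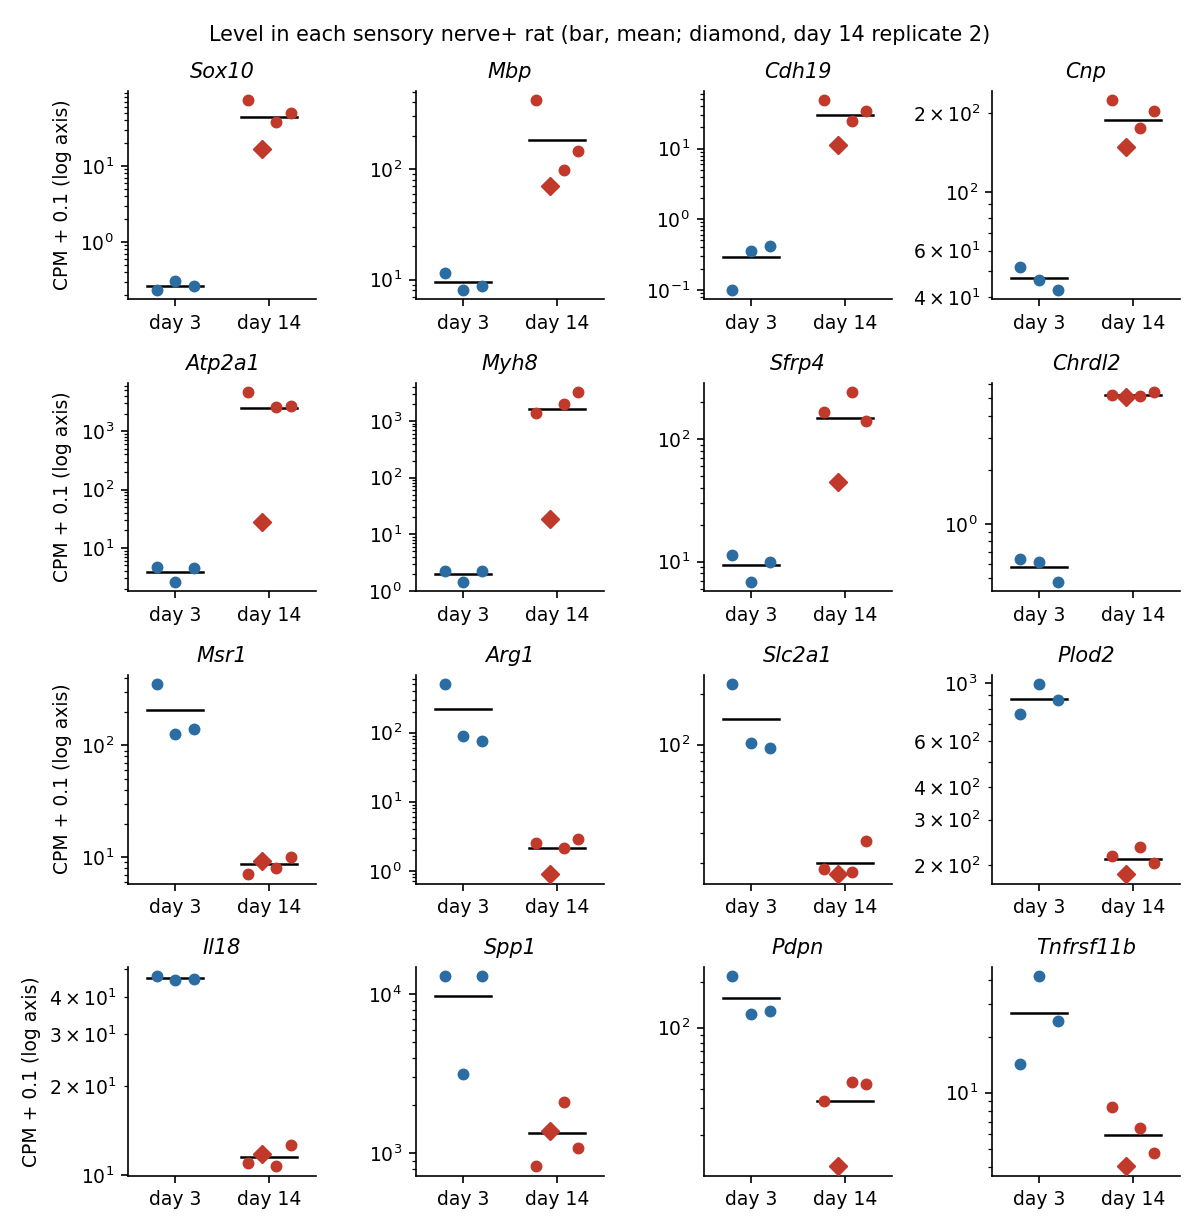
Level in each sensory nerve+ rat (vertical, CPM plus 0.1 on a log axis) at day 3 (blue) and day 14 (red) for 16 genes named in the text; bar, mean; diamond, day 14 replicate 2. Schwann and muscle genes rise with the diamond lowest among late rats, while Msr1, Il18, Chrdl2 and Plod2 keep the diamond within or next to the other late rats.

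Some signals to nerves were also higher at day 14. Of 17 neurotrophic and axon guidance genes, 3 rose and none fell. Leaving out day 14 replicate 2 gave 5, the further genes being Ntf3, a neurotrophin, and Gfra2, the receptor subunit for neurturin. Gfra1, the receptor subunit for GDNF, measured 0.947, 9.14 and 1.5 CPM at day 3 and 121, 87.8, 140.3 and 181 CPM at day 14 (log2 fold change 5.09, SE 0.89, adjusted p = 0.0373). Bdnf, a neurotrophin, went from 0.271, 0.462 and 0.591 to 3.23, 2.6, 5.33 and 6.15 CPM (log2 fold change 3.27, SE 0.49, adjusted p = 0.0301), and Reln, the matrix guidance protein reelin, from 4.67, 5.03 and 2.63 to 54.3, 15.5, 33.9 and 69.2 CPM (log2 fold change 3.40, SE 0.57, adjusted p = 0.0364). None overlapped between days, which was true of every gene called. Fgf5, a growth factor outside the list, had 2 counts in the early rats and 805 in the late ones (adjusted p = 0.0215). Its direction was also set by the filter on low counts, which it passed through the late rats. Sensory neurons of the jaw keep their cell bodies in the trigeminal ganglion, outside the bone, and transcripts of sensory axons were scarce here: 11 of 21 sensory axon genes had too few counts to test, and Calca, which encodes CGRP, had 4 counts in the 3 early rats and 12 in the 4 late ones. Tubb3, a tubulin best known from neurons that some other cells make, fell from 34.2, 33.2 and 22.4 to 6.91, 1.75, 6.19 and 6.88 CPM (adjusted p = 0.0411), and Gap43, a growth cone protein, measured 10.8, 12.7 and 3.17 against 20.6, 10.9, 35.9 and 32 CPM (adjusted p = 0.153). Of the 10 tested members of that list Tubb3 was the only call, and without day 14 replicate 2 Trpv1, the heat and capsaicin channel, was higher and Tubb3 and the neurofilament Nefh were lower. Receptors for CGRP and adrenomedullin gave no call among 7 genes by edgeR. The shared receptor Calcrl measured 26.1, 21.9 and 27.5 against 77.8, 24.1, 68.3 and 60.9 CPM (adjusted p = 0.0981) and was higher without replicate 2, whereas Ramp1, which makes it a CGRP receptor, measured 4.4, 2.98 and 7.79 against 9.05, 17.1, 5.03 and 9.19 CPM (adjusted p = 0.237).

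The same contrast in rats without the nerve was set beside these values, on a scale common to all 19 rats. In sensory nerve- rats 3396 of 14449 genes (23.5%) differed between day 3 and day 14, 1284 higher (8.89%) and 2112 lower (14.6%). The difference between the nerve states in the day 14 against day 3 change passed for 0 of 15547 genes (0%) by edgeR (smallest adjusted p = 0.72, 1033 genes at an unadjusted p under 0.05) and for 18 by DESeq2. Sox10 measured 0.13, 0.183 and 0.151 CPM at day 3, 1.56, 4.22, 1.93 and 0.413 CPM at day 7 and 70.4, 15.7, 35.4 and 47.4 CPM at day 14 with the nerve, and 0.17, 97.1, 0.272 and 0.108 CPM at day 3 and 3.89, 19.6, 16.9 and 6.05 CPM at day 14 without it. One sensory nerve- rat of day 3, replicate 2, was above every sensory nerve+ rat of day 14, while its 3 companions were near 0. The day 7 rats stood between day 3 and day 14. Mbp in the sensory nerve- rats measured 7.44, 286, 4.94 and 8.6 CPM at day 3 and 38.8, 49, 40.6 and 32.9 CPM at day 14, all 4 late values below the lowest late sensory nerve+ rat at 67.0 CPM on this scale.

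Over the 21 Schwann cell and myelin genes, the median difference between nerve states was -5.23 on the log2 scale with that rat and -1.58 without it, and 16 and 10 of the genes, respectively, had an unadjusted p under 0.05 by edgeR. Over all genes, 1033 of 15547 with that rat and 648 of 15492 without it had such a p. The 3 genes with the smallest unadjusted p for a weaker rise without the nerve were all of myelin. Prx differed by -3.76 (SE 0.90) with the rat and by -3.34 without it, Mag by -7.92 (SE 1.86) and -6.95, and Cldn19, a claudin of the myelin sheath, by -8.87 (SE 2.14) and -5.45. None passed edgeR's test after adjustment (adjusted p = 0.72 each). Mag measured 0, 0.187, 0.0454 and 0.0541 CPM at day 3 and 0.0794, 0, 0.342 and 0.0903 CPM at day 14 in sensory nerve- rats, so it stayed near 0 at both times. In the other direction the smallest unadjusted p belonged to Otud7a, a deubiquitinase at 0.812 to 1.24 CPM at day 3 and 0.919 to 1.5 CPM at day 14 with the nerve, to Rundc3a and to Tchh, with differences of 1.99, 1.86 and 1.77. The muscle share also differed between the late rats of the nerve states, at 0.0335% to 0.678% without the nerve against 0.0599% to 5.71% with it, and its part in these values was not tested. The plot of Schwann cell and neurotrophic genes in 19 rats shows the single high rat.

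**Figure D5:**
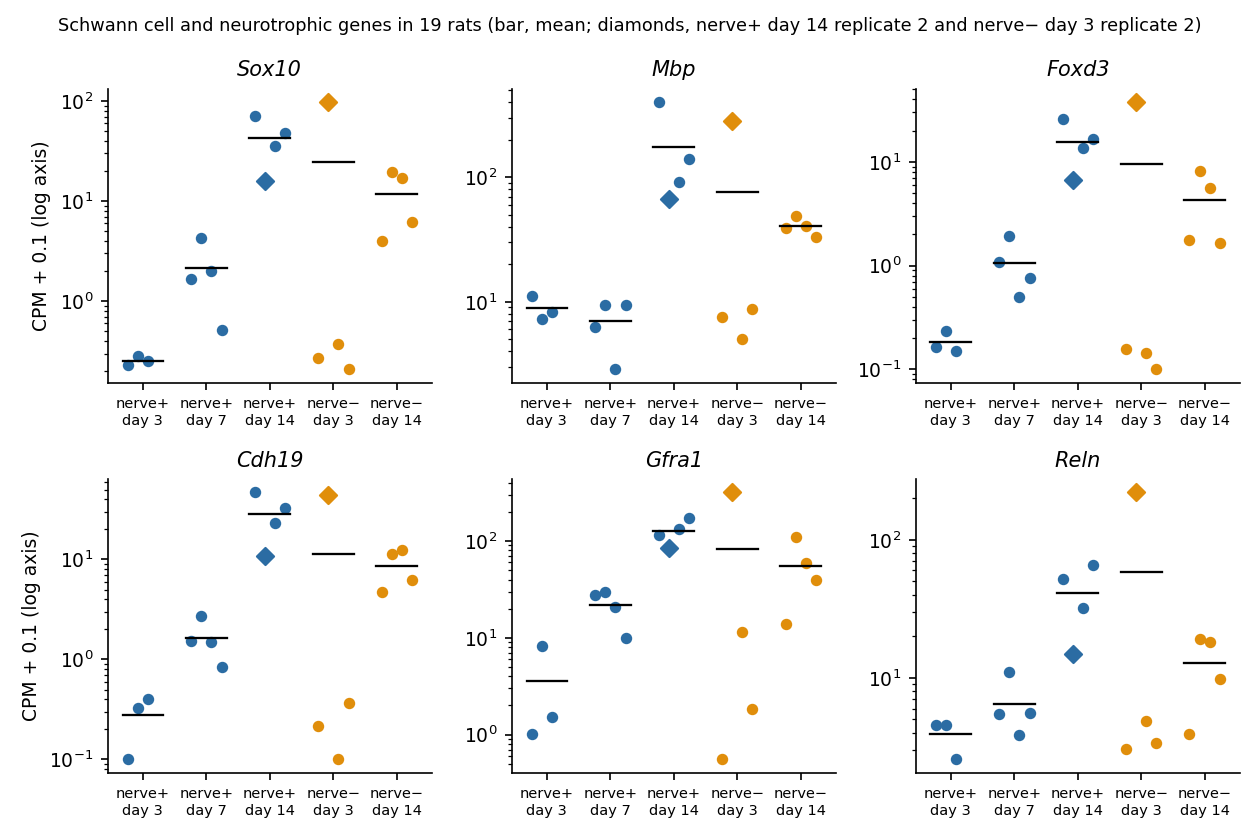
Level in each of 19 rats (vertical, CPM plus 0.1 on a log axis, scaled over all 19) by nerve state and day (horizontal) for Sox10, Mbp, Foxd3, Cdh19, Gfra1 and Reln; blue, sensory nerve+; orange, sensory nerve-; bar, mean; diamonds, sensory nerve+ day 14 replicate 2 and sensory nerve- day 3 replicate 2. The orange diamond lies near the late blue points, far above the other early orange points.

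Enamel genes were high in 2 of the 3 day 3 rats. Amelx, amelogenin of forming enamel, measured 2.3, 2705 and 12134 CPM at day 3 and 0.0576, 0.956, 0 and 0 CPM at day 14 (log2 fold change -14.14, SE 2.92, adjusted p = 0.0435). Ambn, ameloblastin, went from 2.3, 712 and 10989 to 0, 1.01, 0 and 0 CPM (adjusted p = 0.0491), and Enam, enamelin, which did not pass the filter on low counts, from 0.0676, 199 and 933 to 0, 0.266, 0.0613 and 0 CPM. Day 3 replicate 1 held almost none of these transcripts, and the early mean rests on replicates 2 and 3. Dspp of dentin was high in replicate 2 alone (0.0676, 370.4 and 0.86 CPM). Epithelial genes had the same pattern across rats, with Lamb3, a laminin chain of epithelial basement membrane, at 12.4, 160.4 and 133 and 1.61, 0.903, 2.15 and 1.34 CPM (log2 fold change -6.08, SE 0.87, adjusted p = 0.0272), and Dsp, desmoplakin of desmosomes, at 1.49, 89.3 and 37.5 and 0.691, 0.106, 1.29 and 0.609 CPM (adjusted p = 0.0484). The keratins Krt5 and Krt14 did not pass (adjusted p = 0.0609 and 0.0752). Of the tested members, 3 of 4 enamel and dentin genes and 1 of 8 oral epithelium genes, the plakophilin Pkp1, fell. Leaving out day 14 replicate 2 made these counts 2 of 4 and 2 of 8. A further 6 enamel and dentin genes and 12 oral epithelium genes did not pass the filter on low counts. Amelx and Ambn passed it through their day 3 counts, so their direction was set by the filter and the enamel share carries little weight.

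Genes with the steadiest rises outside these lists were Tspan8, a tetraspanin, from 8.18, 8.83 and 7.31 to 32.8, 30.5, 41.7 and 34.5 CPM (log2 fold change 2.11, SE 0.18, adjusted p = 0.0165), Card10, a scaffold for NF-kB signalling in non-immune cells, from 6.63, 9.04 and 8.65 to 28.6, 32, 28.3 and 38.1 CPM (adjusted p = 0.0215), Gbp5, an interferon-induced GTPase, from 6.09, 5.6 and 6.13 to 20.5, 16.7, 21.6 and 25 CPM (adjusted p = 0.0225), and Pde2a, a phosphodiesterase of endothelium, from 20.2, 15.1 and 21.2 to 75.3, 53.9, 78.8 and 56.7 CPM (adjusted p = 0.0258). In each the late rats formed 1 tight group that included replicate 2. All 4 genes also rose in the sensory nerve- rats. Steady falls included Npl, a sialic acid lyase, from 77.9, 73.9 and 64.2 to 17.3, 21.4, 21.5 and 23 CPM (log2 fold change -1.79, SE 0.15, adjusted p = 0.0165), and Steap2, a metalloreductase, from 43.8, 42.5 and 36.2 to 15.3, 14.2, 17.6 and 15.3 CPM (adjusted p = 0.0215). Lipe, the hormone-sensitive lipase of fat and muscle, was the 1 call among 6 tested fat and salivary gland genes, and among 4 without day 14 replicate 2, from 9.2, 12.2 and 12.3 to 59.6, 22.3, 69.8 and 41.8 CPM (adjusted p = 0.0411). Erythroid genes gave no call by edgeR among 16, with or without day 14 replicate 2, with a median of 0.22.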

How the data were processed

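Healing tissue of 19 rats was sequenced as mRNA libraries on the DNBSEQ platform, and the 7 sensory nerve+ rats of day 3 and day 14 were compared. Per the labels and the study's methods, reads of low quality or with adapters or unknown bases were removed and aligned with HISAT to the rat genome mRatBN7.2. The submitters' processing notes also list Bowtie2, and the counter is not given in the sources used here. The authors deposited expected counts per gene, of which 37.2% of values are whole; they were rounded here before testing. Reads shared by near-identical genes, such as the hemoglobin and myosin families, may have been split between them. Groups and replicate numbers came from the sample titles, which show neither a batch nor which libraries, if any, shared an animal or litter, so p-values measure the spread between these samples.

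Genes that passed edgeR's expression filter (15065 of 20022) were tested with edgeR 4.0.16 (TMM scaling, quasi-likelihood test, Benjamini-Hochberg adjustment, threshold 0.05) in R 4.3.3, fitted to the 7 rats; positive log2 values mean higher at day 14. SE is the size of the log2 fold change divided by the square root of the quasi-likelihood F statistic. It was derived from the test and is not a separate measure of spread. The difference between nerve states was an interaction term over 15 rats. Alternatives were DESeq2 1.42.0, limma 3.58.1 voom weights, other scalings, filters and sample sets, and leaving out each rat. The edgeR script was tested on simulated counts in which no rat stood apart, so that check does not cover the effect of an outlying rat. Gene lists (523 of 529 entries in the table), named genes and tests were chosen with earlier results of these data known. Genes were named by a rule (the smallest p in each direction, the largest change at 10 CPM or more, 3 per list, genes the study discusses, and the smallest p for the interaction), and the others (Il1b, Ccl11, Folr2, Cd14, C1qa, Adgre1, S100a9, Eno1, Pgam1, Pdk1, Ero1a, Ldha, Vegfa, P4ha1, Postn, Kera, Col1a1, Bglap, Dmp1, Mepe, Tnfsf11, Ndufa2, Acta1, Casq1, Myog, Myod1, Cdh19, S100b, Mbp, Erbb3, Egr2, Ramp1, Enam, Dspp, Ptgs2, Cd4, Adamts1, Timp4, Adam8, Plaur, Phospho1, Chrd, Tgfb1, Inhba, Snorc, Ucma, Flt1, Vwf, Sox17, Ndufb8, Ndufs3, Ntf3, Gfra2 and Trpv1) were chosen after their values were seen. Not every gene that the rule took is printed, and some genes are not reported here. Promoter windows came from RefSeq (GRCr8), a different build from that of the counts, and were joined by symbol only. The day 7 sensory nerve- and cell culture tables were not used here.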

Additional observations from a re-analysis of the deposited data

Results flagged for a closer look

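In groups of 4 rats, 12 of 114 values examined had 1 day 14 rat far from the other 3 (the gap to the nearest rat over the range was above the 95% critical value of Dixon's test, which chance passes in about 1 of 20 groups). In 9 of the 12 that rat was replicate 2. It lay at -29.3 on the first principal component, where the other late rats lay at 81.9 to 90.6. It was high in Fpr2, a formyl peptide receptor of neutrophils, at 60.4 CPM (others 2.33 to 11.6), in Ngp at 869 CPM (4.23 to 64.7), in Mzb1 at 41.4 CPM (2.33 to 8.95) and in Ramp3, a coreceptor for adrenomedullin, at 22.3 CPM (16.8 to 17.3). It was low in Sypl2 at 2.82 CPM (289 to 346) and in Tubb3 at 1.75 CPM (6.19 to 6.91). It alone held more than a trace of Ambn, at 1.01 CPM, and of Amelx, at 0.956 CPM (0 to 0.0576).

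Of the remaining 3, Krt14 measured 2.39 CPM in replicate 3 (0 to 0.0576 in the others), Serpinb8, a protease inhibitor that fell at day 14, 8.07 CPM in replicate 1 (10.2 to 10.5), and Slc2a1 26.9 CPM in replicate 4 (17.2 to 18.3). For Serpinb8 and Slc2a1 the outlying rat was on the same side of every day 3 rat as the other late rats.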

How the results depend on the processing

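Against 871 calls, DESeq2 gave 3375, the fit of 11 sensory nerve+ rats 1904, limma voom with sample weights 5589 (weight 0.168 for day 14 replicate 2) and library total scaling 547; RLE size factors gave 758, scaling without hemoglobin genes 627, no filter on low counts 608 and a mean of at least 5 CPM 877. Leaving out 1 rat gave 0 to 3133. Genes called in both fits kept their direction in each comparison of calls made. The difference between nerve states gave 18 genes by DESeq2 and 0 by edgeR under each rat left out (648 to 2259 at an unadjusted p under 0.05). A replicate block on shared numbers left 0 calls by edgeR (unadjusted p under 0.05 for 1929 genes). Correlations of same-numbered deviations were -0.120, -0.0924 and 0.0115, and those of differently numbered samples ran from -0.0902 to 0.123. So few values cannot show whether same-numbered samples share a litter or batch. The main fit took them as unpaired because the titles give no pairing.

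Among 109 genes named by rule, DESeq2 kept 80 of 106 on their side of the threshold and called 26 more, and without day 14 replicate 2, 86 of 108 stayed, 20 more were called and 1 was lost. Leaving out day 3 replicate 3 or another late rat lost 62 to 64. Direction turned for Runx2 (-0.32 with voom weights; -0.21 to 0.40 with 1 rat left out, negative without day 3 replicate 1 and, at -0.11, without day 14 replicate 2) and Nos2 (-2.08 to 0.0863, positive without day 3 replicate 1), neither of them called. The hemoglobin difference of 0.966 percentage points ran from -1.95 to 5.47 when 1 rat was left out, a check chosen after seeing the data. The causes were not tested. With 3 and 4 rats, genes at a few counts per library and changes within the wide spread of the late rats were not detectable.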

Other observations

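Many genes that fell act in the secretory pathway, described here through lists drawn up after the values were seen, as were all lists in these observations, which therefore carry no test. Over all genes tested, 3.09% fell and 2.69% rose. Of 30 genes for moving proteins into the endoplasmic reticulum and glycosylating them, 13 fell and none rose (median log2 fold change -0.56). Sec61a1, the channel protein, measured 427, 344 and 390.0 CPM at day 3 and 145, 187, 163 and 144 CPM at day 14 (log2 fold change -1.27, SE 0.16, adjusted p = 0.0258). Of 25 genes of vesicle coats and cargo receptors between that compartment and the Golgi, 16 fell and none rose (median -0.79), among them Surf4, a cargo receptor, from 454, 438 and 481 to 181, 199.6, 206 and 175 CPM (log2 fold change -1.26, SE 0.13, adjusted p = 0.0215), and Kdelr3, which returns resident proteins, from 144, 170.3 and 125 to 46, 42.3, 58.8 and 38.2 CPM (adjusted p = 0.0258). Of 20 folding genes 10 fell (median -0.87), with Pdia4, a disulfide isomerase, at 384, 271 and 266 against 121, 135, 132 and 128 CPM (adjusted p = 0.0272). In Sec61a1, Surf4, Kdelr3 and Pdia4 the late rats, replicate 2 included, lay below the early rats, as in every gene called lower.

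Collagen processing had 12 of 23 lower and none higher (median -1.03), including Aldh18a1, which makes proline, from 124, 122 and 102 to 38.3, 34.1, 41.7 and 32.3 CPM (log2 fold change -1.66, SE 0.14, adjusted p = 0.0165), and the collagen chaperone Serpinh1, from 2160.4, 1823 and 1695 to 808, 481, 951 and 704 CPM (adjusted p = 0.0418). Plod2, P4ha1, P4ha2 and Lox are among the 12 and were already counted in the hypoxia or fibroblast list. Sterol synthesis had 7 of 23 lower and none higher (median -0.80), with Sqle, squalene epoxidase, at 43.7, 53.9 and 34 against 15.3, 10.7, 12.4 and 16.7 CPM (adjusted p = 0.0272). In sensory nerve- rats, 20 of 30 translocation and glycosylation, 16 of 25 vesicle, 13 of 20 folding, 9 of 23 collagen processing and 12 of 23 sterol genes fell, where 14.6% of all genes fell.

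In lists drawn up in the same way, all 7 GIMAP genes, small GTPases of lymphocytes and endothelium, were higher in every late rat. Over all genes tested, 1644 of 15065 (10.9%) were separated in that direction. Of the 7 GIMAP genes, 5 passed (median 1.47). Gimap6 measured 5.61, 4.88 and 7.68 CPM at day 3 and 21.1, 26.3, 16.6 and 18.4 CPM at day 14 (log2 fold change 1.77, SE 0.26, adjusted p = 0.0272). Among 18 clock and glucocorticoid response genes 3 rose: Zbtb16 from 1.69, 3.49 and 2.31 to 28.9, 28.6, 13 and 31.9 CPM (adjusted p = 0.0258), Per1 from 29.4, 41.4 and 32.7 to 125, 72.4, 119 and 113 CPM (adjusted p = 0.0272) and Tsc22d3 from 76, 77.4 and 70.9 to 299.6, 174, 149.8 and 225 CPM (adjusted p = 0.0365), while Fkbp5, another glucocorticoid target, did not pass (60.1, 52.9 and 89.5 against 81.5, 195, 39.1 and 86.2 CPM, adjusted p = 0.499).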
